A study of Homo sapiens with 6 samples.

Results

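The transferrin route of iron uptake was followed through 7 of the 62252 genes with a transcript in the files: TF, TFRC, TFR2, HFE, STEAP3, STEAP2 and SLC11A2. The members were taken by gene symbol in GENCODE release 44 on GRCh38, and 126 of the 252045 annotated transcripts in the files belonged to them. RNA came from K562, a human erythroid leukemia line grown in suspension. The DMSO group was given the solvent alone in matched volume, and the Chelator group was given 10 µM 21H7, an iron chelator, both overnight in RPMI medium with fetal bovine serum. Each group held 3 polyA-selected paired-end libraries of this single line, numbered as replicates in the sample titles. The p-values therefore measure the spread between these libraries.

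Transferrin, the product of TF, carries ferric iron in the blood and binds the transferrin receptor, the product of TFRC, which is taken into the cell through clathrin-coated pits. In the acid endosome the iron is released, reduced by STEAP3 and passed to the cytosol by DMT1, the product of SLC11A2, while receptor and empty transferrin return to the surface. Erythroid cells take up iron mainly by this route. Iron responsive elements, short hairpins in mRNA bound by the iron regulatory proteins when iron is low, protect TFRC mRNA from decay, and some SLC11A2 mRNAs carry a related hairpin.

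The libraries held 78.6 to 90.4 M estimated counts in DMSO and 85.4 to 101 M in Chelator. The mean fragment length, read from the effective lengths of transcripts with no counts, was 252 to 264 bases in DMSO against 200 to 218 bases in Chelator. Fragment length and treatment therefore cannot be told apart, and transcripts under 1000 bases took 12.7% to 14.9% of the counts in DMSO against 16.8% to 18.4% in Chelator. All 10 K562 markers were detected, with summed levels of 16293 to 17811 TPM (abundance corrected for transcript length and set to an equal total per library) in DMSO and 21428 to 22869 TPM in Chelator, and none was called. At an adjusted p under 0.05 the globins HBG1, HBG2 and HBE1 were higher and TAL1, KLF1 and LMO2 were lower. Of the 9 hepatocyte markers, listed because the liver is the main source of transferrin, none reached 1 TPM, APOB was at 0 in every library, and the sum was 0.383 to 0.927 TPM in DMSO and 0.288 to 0.679 TPM in Chelator. Among 5 lymphoid markers MS4A1 was at 0, CD3D and CD3E were called higher, and the sum was 11.8 to 17.8 TPM in DMSO and 42.5 to 44.3 TPM in Chelator, and its part in the results below was not tested.

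Of the 7 genes, TF and TFRC rose and STEAP3 fell after chelation, while TFR2, HFE, STEAP2 and SLC11A2 were not called. A gene was called where its absolute log2 fold change was above 1 and its Benjamini-Hochberg adjusted p under 0.05 in DESeq2's Wald test, fitted over all genes with average transcript length as an offset. By this rule 10.8% of the 24542 genes with an adjusted p were called, 2007 of them higher and 639 lower. The members had a median log2 fold change of -0.0044, and all genes with an adjusted p a median of 0.0158. Changes larger than those of the members were common: 422 called genes rose more than TF, 566 rose more than TFRC and 236 fell more than STEAP3. The RNA is from whole cultures, in which fewer cells of a type and less RNA per cell cannot be told apart.

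In DMSO the levels in TPM ran TFRC, TFR2, STEAP3, SLC11A2, HFE, TF and STEAP2 from highest to lowest, and no neighbours in this order overlapped between libraries. In Chelator the order was TFRC, TFR2, SLC11A2, TF, STEAP3, HFE and STEAP2. The only neighbours that overlapped there were TF, at 11.9 to 15.7 TPM, and STEAP3, at 11.5 to 12.7 TPM. TFRC thus stood highest under both conditions. Over transcripts of at least 1000 bases TF, at 1.85, 1.96 and 2.02 TPM in Chelator, did not stand above HFE, at 2.66, 2.29 and 2.015 TPM.

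**Figure D1:**
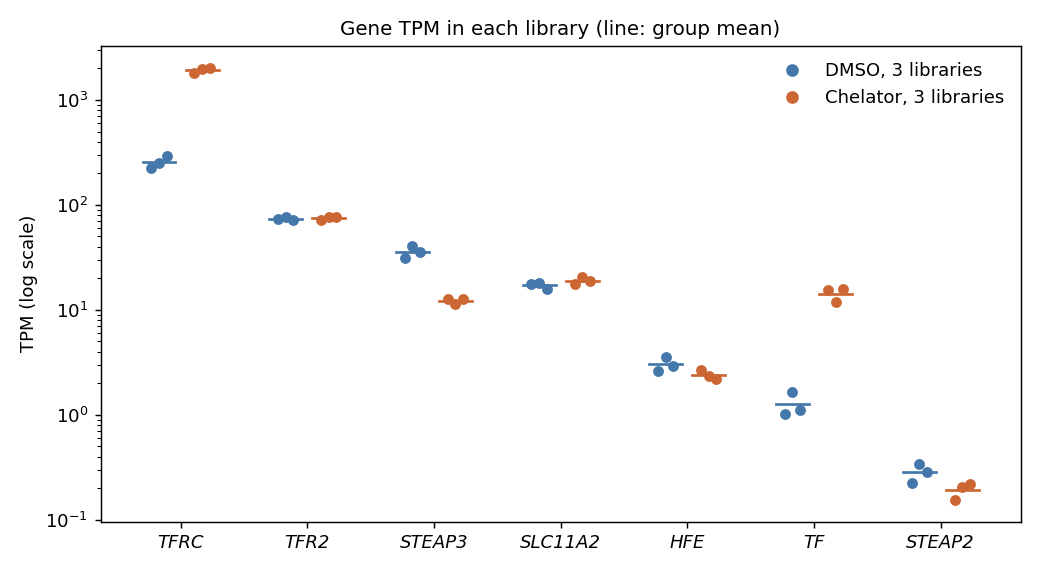
Level of each of the 7 genes in TPM on a log axis, with a point per library and a line at the mean of the 3 libraries of a group. TFRC lay at 227 to 290.1 TPM in DMSO and 1814 to 2035 TPM in Chelator, TF at 1.02 to 1.66 and 11.9 to 15.7 TPM, and STEAP3 at 31.4 to 40.3 and 11.5 to 12.7 TPM.

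TF (ENSG00000091513.16, chr3:133746040-133796641, plus strand) encodes the ligand. Its summed level was 1.02, 1.66 and 1.101 TPM in DMSO and 15.3, 11.9 and 15.7 TPM in Chelator, with no overlap between the groups. The means were 1.26 ± 0.348 and 14.3 ± 2.05 TPM (SD, n = 3). TF rose by 3.50 on the log2 scale (SE 0.138, DESeq2 adjusted p = 9.19e-139), or 11.3-fold. The summed counts rose less than the TPM. They were 1063, 1098 and 1039 in DMSO and 3107, 3316 and 2959 in Chelator, and the log2 fold change fitted with no length offset was 1.32. The difference between these values lay in the mean effective length of the reads' transcripts, at 12961, 9892 and 13640 bases for the DMSO libraries against 2435, 3128 and 2507 bases for the Chelator libraries. A shift between the fits as large as that of TF was seen in 40 of 24542 genes (0.163%).

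The transcripts of TF show where this shift lay. TF-201, of 20166 bases, is the only annotated TF transcript with the longest coding sequence, 2094 bases, and 82.3% of its 31-base words occurred in no other transcript. TF-201 was at 0.748, 0.917 and 0.858 TPM in DMSO and at 1.71, 1.86 and 1.91 TPM in Chelator. Its mean level was 2.17 times as high in Chelator, without overlap. Its log2 fold change of 0.99 (edgeR quasi-likelihood adjusted p = 0.00125) lay just under the threshold for a call, which 7.50% of the 82138 transcripts tested met. TF-201 lay over the threshold without DMSO replicate 3 (1.03), Chelator replicate 1 or Chelator replicate 2. Its share of the TF TPM fell from 73.5%, 55.3% and 78.0% to 11.1%, 15.6% and 12.2%.

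Short TF transcripts made up the rest. TF-204, a fragment of 990 bases from the inner exons annotated for nonsense-mediated decay, was at 0 in all DMSO libraries and received 266.5, 262 and 249.6 counts after chelation, which is 4.22, 3.84 and 4.29 TPM. With each DMSO library set to a floor of 3 counts it was at least 67.9-fold higher (edgeR adjusted p = 0.00165). TF-210, a coding fragment of 659 bases from the 5′ exons, had 0 counts in DMSO and 163.2, 169.6 and 202.9 in Chelator, or at least 43.95-fold higher (adjusted p = 0.00269). TF-202, of 546 bases, rose from 5.69, 7.47 and 4.17 counts to 52.6, 37.5 and 62.8 (log2 fold change 2.91, adjusted p = 0.0135). These 3 transcripts were called, but each passed the count filter only through the Chelator libraries. None of them was called with a replicate block. TF-214, of 719 bases, was not (log2 fold change 2.76, adjusted p = 0.22), but was called without DMSO replicate 2 (5.46, adjusted p = 0.0384). The DMSO values for TF-204 and TF-210 are salmon's division of shared reads: 5.83% of the 31-base words of TF-204 and none of those of TF-210 were found in no other transcript.

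All transcripts of TF other than TF-201 together took 1.35%, 1.84% and 0.525% of the TF counts in DMSO and 20.7%, 16.3% and 20.1% in Chelator. In TPM the 12 transcripts under 1000 bases took 0.242, 0.733 and 0.243 in DMSO and 13.5, 9.98 and 13.6 in Chelator. With gene sums over transcripts of at least 1000 bases, a choice made after the data were seen, the log2 fold change of TF was 1.20 with the offset and 1.09 without it. TF therefore rose under every way of summing tried, by a size that depended on the short transcripts. Fragment length differed between the groups, and its part in the values of these short transcripts was not tested. Of all tested transcripts under 1000 bases 5.80% were called higher and 1.26% lower, with a median log2 fold change of 0.26.

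The annotated span of TF ends at chr3:133796641, inside that of SRPRB (chr3:133784023-133825772) on the same strand. TF-201 shares 313 exon bases with an unnamed lncRNA and SRPRB. How many reads of TF-201 came from SRPRB RNA, unspliced RNA included, was not tested. SRPRB, a subunit of the signal recognition particle receptor, had 5645, 5038 and 4752 counts in DMSO and 4705, 4736 and 4202 in Chelator and was not called (log2 fold change 0.08, adjusted p = 0.648). Its counts were higher than those of TF in every library. When transcripts that share exon bases with another gene were left out, TF lost TF-201 and most short transcripts, and TF-204 and TF-207, which held 0 to 8.61 counts in each DMSO library, were among those left. The log2 fold change of 8.20 then obtained is over a group near 0 and is no bound.

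**Figure D2:**
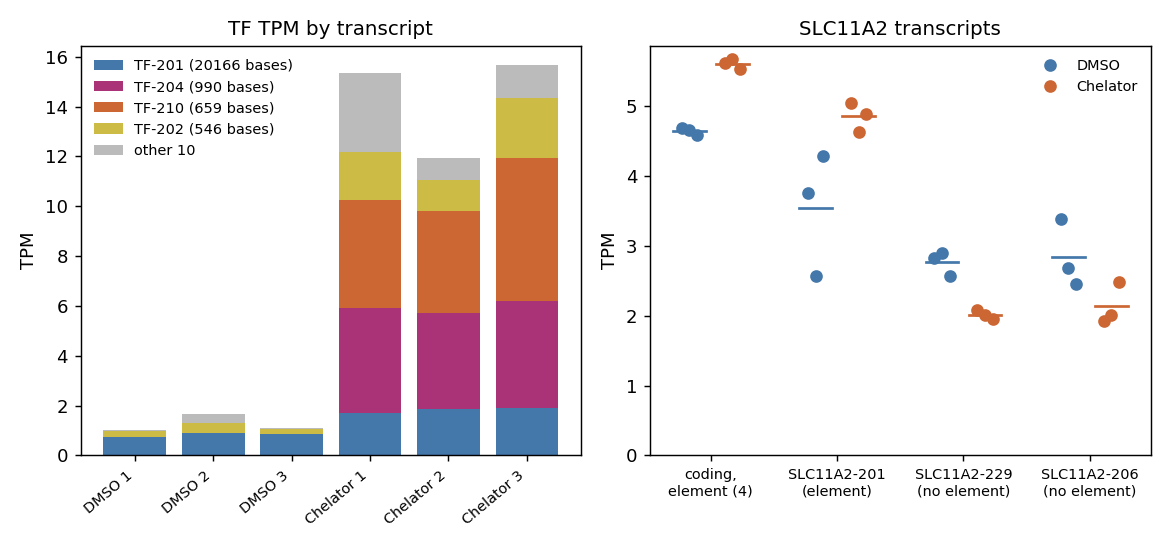
Left, TF level in TPM in each library, stacked by transcript. TF-201 rose from 0.748 to 0.917 TPM to 1.71 to 1.91 TPM, and the short transcripts filled the rest of the Chelator bars. Right, SLC11A2 transcripts in TPM, a point per library and a line at the group mean: the 4 coding transcripts with the hairpin pattern lay at 4.59 to 4.69 TPM in DMSO and 5.53 to 5.67 TPM in Chelator.

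TFRC (ENSG00000072274.14, chr3:196012511-196082153, minus strand) encodes the transferrin receptor and is known for iron responsive elements in its 3′ untranslated region. These were searched for by a pattern read on the transcript strand, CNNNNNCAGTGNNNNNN. In it the 5 bases on either side of the loop CAGTGN pair fully, G-U pairs included. An element that departs from this pattern would be missed. The pattern occurred 4 times in 13 TFRC transcripts with a coding sequence, within 533 bases of the 3′ untranslated region, and 142 of 19203 genes with an annotated 3′ untranslated region (0.739%) held it. No gene held it more often than TFRC. The 4 elements found are shown on GRCh38, 5′ to 3′ on the minus strand with the loop in capitals, because the transcripts below are divided by whether they hold them.
TFRC element 1: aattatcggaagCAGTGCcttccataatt
TFRC element 2: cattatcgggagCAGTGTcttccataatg
TFRC element 3: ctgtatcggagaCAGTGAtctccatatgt
TFRC element 4: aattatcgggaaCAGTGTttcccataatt
The pattern itself lies at chr3:196050985-196051001, chr3:196050581-196050597, chr3:196050516-196050532 and chr3:196050469-196050485, in this order. RNAfold gave the printed windows a minimum free energy of -7.1, -8.1, -9.0 and -11.2 kcal/mol, each as a hairpin with an unpaired C before the upper stem. The pattern also matched once in the 3′ untranslated region of TF-201, at chr3:133792679-133792695, in a window of -1.5 kcal/mol that RNAfold did not fold as this hairpin.

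TFRC was at 227, 251 and 290.1 TPM in DMSO and at 1814, 1976 and 2035 TPM in Chelator. The means were 256 ± 31.9 and 1942 ± 115 TPM (SD, n = 3), and the groups did not overlap. TFRC rose by 2.89 on the log2 scale (SE 0.102, DESeq2 adjusted p = 3.42e-172), or 7.40-fold. In counts TFRC went from 58683, 57167 and 50027 to 295361, 293962 and 250060. Fitted with no length offset it was 2.11, and over transcripts of at least 1000 bases 2.04 with the offset, both on the log2 scale. A shift between the fits of this size was seen in 2.62% of genes.

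Of the 38 TFRC transcripts 31 were tested and 9 were called, 8 of them higher. The 13 transcripts that have a coding sequence and hold the 4 elements, 10 protein-coding and 3 annotated for nonsense-mediated decay, summed to 146, 171 and 143 TPM in DMSO and to 738, 677 and 674 TPM in Chelator, a ratio of 4.54. Most of this was TFRC-201, of 5012 bases, at 129, 151 and 123 TPM in DMSO and 683, 625 and 618 TPM in Chelator (log2 fold change 2.17, edgeR adjusted p = 0.000333). TFRC-202 and TFRC-203, which differ from it in their ends or exons, rose by 1.48 and 1.32 on the log2 scale. The rarer TFRC-225, TFRC-232 and TFRC-233 were also called higher. TFRC-225 went from 0 counts in all DMSO libraries to 93.7, 145 and 646, so it passed the count filter only through Chelator. The 3 calls of these rarer transcripts were lost when single libraries were left out, at adjusted p-values of up to 0.111. Each of the 3 main transcripts, all protein-coding, was thus called higher. All 31-base words of TFRC-201 and TFRC-202 occurred in other transcripts too, as did all but 0.54% of those of TFRC-203. Their separate values therefore rest on salmon's division of shared reads.

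The 13 TFRC transcripts that hold the elements but have no annotated coding sequence moved differently. They summed to 17.7, 20.4 and 17.6 TPM in DMSO and to 18.5, 18.5 and 18.1 TPM in Chelator, with overlapping ranges (ratio 0.989, exact two-sided permutation p = 1). The 18 transcripts annotated as retained introns were at 27.1, 31.9 and 28.9 TPM in DMSO and 27.4, 31.2 and 29.5 TPM in Chelator. TFRC-211, a retained-intron transcript of 6585 bases that holds the elements, fell from 1655, 1367 and 1446 counts to 665, 1059 and 553 (log2 fold change -1.27, adjusted p = 0.0101). It was not called with a replicate block, and all its 31-base words occurred in other transcripts too. TFRC-221, of 4432 bases, rose by 2.27 on the log2 scale to at most 0.835 TPM. The groups overlapped in the sum of retained-intron TFRC RNA and did not overlap in that of the 13 transcripts with a coding sequence and the elements. Over all tested retained-intron transcripts of at least 1000 bases 5.14% were called higher and 1.45% lower.

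TFRC-204 took the largest part of the TFRC TPM after chelation. This transcript of 524 bases, annotated for nonsense-mediated decay, covers 5 exons at the 5′ end of the gene (chr3:196071440-196082096) and lacks the elements. It was at 31.3, 33.1 and 87.4 TPM in DMSO and at 1031, 1259 and 1314 TPM in Chelator (log2 fold change 4.63, edgeR adjusted p = 0.00319). DMSO replicate 3 stood above the other DMSO libraries but far below every Chelator library. Without it the log2 fold change of TFRC-204 was 5.30, and the lowest with any single library left out was 4.36. Its share of the TPM went from 13.8%, 13.2% and 30.1% to 56.9%, 63.7% and 64.6%, and its share of the counts from 1.101%, 1.01% and 3.03% to 8.03%, 10.8% and 11.5%. Only 5.26% of its 31-base words were found in no other transcript, so most of its reads could also come from the first exons of the coding transcripts, and their division by salmon was not tested. Its effective length was 251 to 261 bases in the DMSO libraries against 276.5 to 289.5 bases in the Chelator libraries. TFRC-208, another short transcript without the elements, of 546 bases, was at 18.3, 10.8 and 27.4 TPM in DMSO and 13.8, 5.02 and 12.5 TPM in Chelator and was not called. ENSG00000286168, a lncRNA on the opposite strand, had 5 to 33 counts in any library (log2 fold change -1.45, DESeq2 adjusted p = 0.111).

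**Figure D3:**
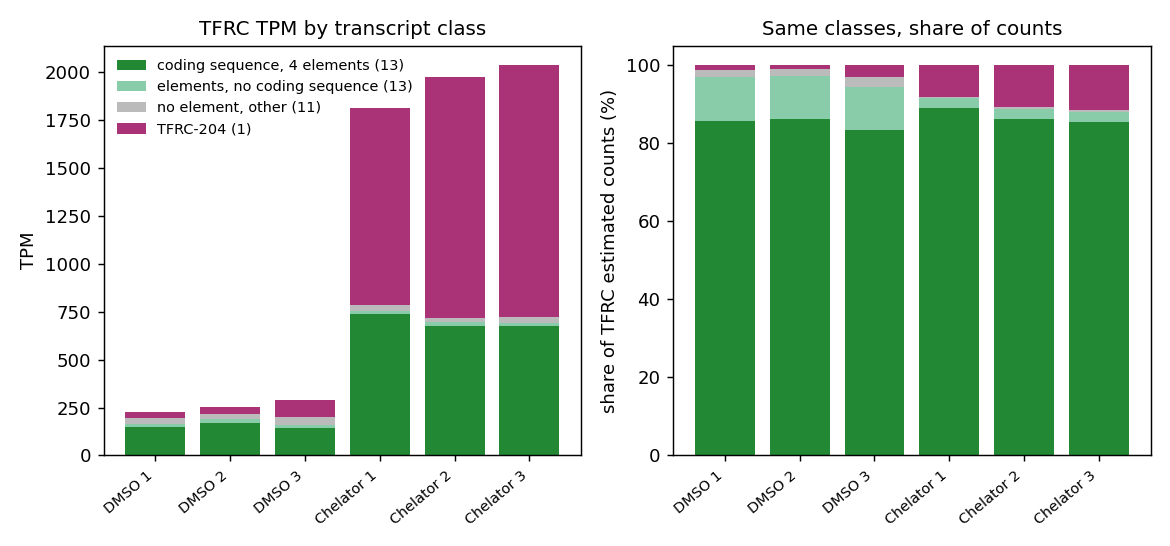
TFRC by transcript class in each library, in TPM on the left and as a share of the TFRC estimated counts on the right. TFRC-204 took 56.9% to 64.6% of the TPM in Chelator but 8.03% to 11.5% of the counts, and the 13 transcripts with a coding sequence and the 4 elements took 83.5% to 89.1% of the counts in all 6 libraries.

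The share of TFRC in element-holding transcripts with a coding sequence depended on the scale. In TPM it was 64.4%, 68.0% and 49.3% in DMSO and 40.7%, 34.3% and 33.1% in Chelator, a difference of -24.5 percentage points (exact two-sided permutation p = 0.1, the smallest p that 3 against 3 libraries can give). In counts it was 85.8%, 86.2% and 83.5% in DMSO and 89.1%, 86.2% and 85.6% in Chelator, a difference of 1.82 points (exact p = 0.4). Among transcripts of at least 1000 bases it rose by 9.50 points, from 87.3% to 87.6% up to 96.9% to 97.2%. The fall in TPM was thus seen with TFRC-204 included and not among the long transcripts.

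The make-up of a gene by transcript was also tested with edgeR's diffSpliceDGE, which called 9.26% of 11938 genes. TF (adjusted p = 3.03e-07) and TFRC (adjusted p = 3.64e-14) were called, and the other 4 members that could be tested, TFR2, HFE, STEAP3 and SLC11A2, were not. This test treats the transcripts of a gene as equally variable, so the shares in each library above are the better guide. The TF call was lost without any Chelator library, which takes TF-202, TF-204 and TF-210 below the count filter, and SLC11A2 was called without Chelator replicate 3 (adjusted p = 0.00319). The largest changes in mean share were -56.0 percentage points for TF-201 and 42.7 points for TFRC-204.

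TFR2 (ENSG00000106327.13, chr7:100620416-100642779, minus strand) encodes the second transferrin receptor, which binds transferrin more weakly and serves iron sensing in hepatocytes and erythroid cells. It was at 72.8, 76.7 and 72.1 TPM in DMSO and at 72.5, 75.9 and 77.3 TPM in Chelator, so the groups overlapped. The log2 fold change was -0.00438 (SE 0.0724, DESeq2 adjusted p = 0.974), and its 95% interval ran from -0.146 to 0.138. Of its 13 transcripts 12 were tested and none was called. The 3 protein-coding transcripts summed to 34.5, 39.7 and 36.5 TPM in DMSO and 40, 38.7 and 38.8 TPM in Chelator, and the 9 retained-intron transcripts to 35.4 to 37.8 and 32.2 to 37.7 TPM. TFR2-205, of 3131 bases, was the highest of them at 22.3 to 31.5 TPM in DMSO and 24.5 to 26.1 TPM in Chelator. TFR2-201, of 2886 bases, was at 8.11, 7.92 and 14.1 TPM in DMSO and 15.4, 12.7 and 12.04 TPM in Chelator, and the groups overlapped. TFR2-208, a retained-intron transcript of 628 bases, was at 8.04 to 10.6 and 9.37 to 10.7 TPM and also overlapped. The other retained-intron transcripts named here did not pass the edgeR test either. TFR2-206, of 2763 bases, was at 3.17, 1.91 and 2.49 TPM in DMSO and 3.36, 5.66 and 6.005 TPM in Chelator (log2 fold change 0.92, adjusted p = 0.114). TFR2-203, of 692 bases, was at 5.41 to 6.14 and 3.94 to 4.94 TPM (-0.32, adjusted p = 0.339), and TFR2-209, of 771 bases, at 4.16 to 5.17 and 3.61 to 3.74 TPM (-0.33, adjusted p = 0.306).

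The receptors therefore parted. The TFRC level divided by the TFR2 level in TPM was 3.12, 3.28 and 4.03 in DMSO and 25, 26.0 and 26.3 in Chelator (exact two-sided permutation p = 0.1, the smallest possible). Over transcripts of at least 1000 bases the ratio was 3.92, 3.88 and 3.57 in DMSO and 15.6, 14 and 13.6 in Chelator, again without overlap.

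HFE (ENSG00000010704.19, chr6:26087281-26098343, plus strand) encodes an MHC class I-like protein that binds TFRC at the surface and takes part in iron sensing. It was at 2.60, 3.57 and 2.94 TPM in DMSO and at 2.70, 2.36 and 2.17 TPM in Chelator. Chelator replicate 1 lay within the DMSO range, and a change of -0.35 on the log2 scale (SE 0.134, DESeq2 adjusted p = 0.0258) was too small for a call. An adjusted p under 0.05 with any fold change was met by 37.7% of genes. HFE-207, of 5176 bases, carried 80.1% to 89.1% of the HFE TPM in every library, and its log2 fold change was -0.38 (edgeR adjusted p = 0.199). HFE-211, a retained-intron transcript of 1245 bases, was at 0.264, 0.3995 and 0.406 TPM in DMSO and 0.246, 0.245 and 0.2345 TPM in Chelator, without overlap, and was not called (-0.57, adjusted p = 0.426). H2BC4, a histone gene on the opposite strand whose annotated span holds HFE, was at a log2 fold change of -0.54 (adjusted p = 7.59e-10), and its annotated exons share 112 to 430 bases with each HFE transcript.

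STEAP3 (ENSG00000115107.20, chr2:119223831-119265652, plus strand), the endosomal ferrireductase of erythroid cells, was the member that fell. It was at 31.4, 40.3 and 35.3 TPM in DMSO and at 12.6, 11.5 and 12.7 TPM in Chelator, and all 3 Chelator libraries lay under all 3 DMSO libraries. STEAP3 fell by 1.56 on the log2 scale (SE 0.0857, DESeq2 adjusted p = 5.72e-72), a 2.95-fold lower level. The fall was about the same with and without the length offset (-1.51 without it). The counts were 8133, 8502 and 7659 in DMSO and 3439, 3436 and 3114 in Chelator.

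Of the 4 tested coding transcripts of STEAP3 3 were called lower, and STEAP3-204, of 2103 bases and 2.39 to 72.2 counts per library, was not (adjusted p = 0.548). STEAP3-201, of 3915 bases, went from 16.7, 20.0 and 16.3 TPM to 5.16, 5.49 and 6.21 TPM (log2 fold change -1.71, edgeR adjusted p = 0.000425). STEAP3-202, of 1871 bases, went from 9.91, 14.0 and 13.4 TPM to 3.96, 3.42 and 4.30 TPM (-1.71, adjusted p = 0.00204), and STEAP3-203, of 4259 bases, from 4.29, 5.92 and 5.48 TPM to 3.17, 2.56 and 2.07 TPM (-1.06, adjusted p = 0.0153). No change in the make-up of the gene was called. STEAP3-203 lay near the threshold and lost its call without DMSO replicate 3 (-0.99), Chelator replicate 2 (adjusted p = 0.0634) or Chelator replicate 3 (-0.90). STEAP3-AS1, an antisense transcript, had 13.03 to 43.1 counts in any library and was not called.

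STEAP2 (ENSG00000157214.14, chr7:90167590-90238137, plus strand), a related metalloreductase, was near the lower limit of what could be measured. It was at 0.225, 0.341 and 0.286 TPM in DMSO and at 0.154, 0.206 and 0.221 TPM in Chelator, from 65.6 to 113 counts per library. All 3 Chelator libraries lay just under the lowest DMSO library in TPM. The log2 fold change was -0.58 (SE 0.306, DESeq2 adjusted p = 0.132, 95% interval -1.17 to 0.0237). Fitted with no length offset it was -0.77 (adjusted p = 0.017), also below the size for a call. Its reads were given wholly to STEAP2-201 in DMSO replicate 3 and Chelator replicate 1 and wholly or mainly to STEAP2-203 in the other libraries, so no transcript is compared.

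SLC11A2 (ENSG00000110911.17, chr12:50979401-51028566, minus strand) encodes DMT1, which moves ferrous iron from the endosome to the cytosol. It was at 17.8, 18.0 and 15.8 TPM in DMSO and at 17.8, 20.5 and 18.7 TPM in Chelator, with overlapping groups. The log2 fold change was 0.11 (SE 0.0917, DESeq2 adjusted p = 0.394), and the 95% interval of the fold ran from 0.951 to 1.22. The strict element pattern occurred in none of its 33 transcripts. A search that allowed 1 unpaired base in the 3′ side of the stem, made after this was seen, found it at chr12:50988274-50988291 in 6 transcripts, and 1.22% of genes held this looser pattern. It is printed on GRCh38, 5′ to 3′ on the minus strand with the 6 bases of the pattern's loop in capitals, to set beside those of TFRC.
SLC11A2 element: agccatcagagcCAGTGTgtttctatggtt
RNAfold gave this window a minimum free energy of -6.8 kcal/mol, in a fold that pairs the first bases of the capitals and, among the capitals, leaves only GTG unpaired.

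The coding SLC11A2 transcripts with this hairpin lay slightly higher after chelation. The 4 of them summed to 4.69, 4.65 and 4.59 TPM in DMSO and to 5.62, 5.67 and 5.53 TPM in Chelator, a ratio of 1.21 without overlap (exact two-sided permutation p = 0.1, the smallest possible). SLC11A2-201, of 4132 bases, made up most of this sum, at 3.76, 2.56 and 4.28 TPM in DMSO and 5.05, 4.63 and 4.89 TPM in Chelator (log2 fold change 0.34, edgeR adjusted p = 0.419). SLC11A2-229, a coding transcript of 3762 bases that lacks the hairpin, was at 2.82, 2.90 and 2.56 TPM in DMSO and 2.08, 2.01 and 1.96 TPM in Chelator. Its log2 fold change of -0.55 (adjusted p = 0.0299) was too small for a call. All 5 coding transcripts of at least 1000 bases without the hairpin, SLC11A2-229 among them, summed to 3.04, 4.61 and 2.56 TPM in DMSO and 2.31, 3.08 and 2.40 TPM in Chelator, with overlap (exact p = 0.3). All 6 hairpin-holding transcripts, coding or not, summed to 5.107 to 5.936 TPM in DMSO and 5.885 to 6.037 TPM in Chelator and also overlapped (exact p = 0.3).

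The other SLC11A2 transcripts varied between libraries. SLC11A2-206, of 2125 bases and annotated for nonsense-mediated decay, was at 3.38, 2.68 and 2.46 TPM in DMSO and 1.92, 2.01 and 2.49 TPM in Chelator. SLC11A2-205, SLC11A2-218 and SLC11A2-223, all under 1000 bases, were at 0 in some libraries of a group and at up to 5.52, 3.92 and 1.88 TPM in others. The share of SLC11A2 TPM in all 6 hairpin-holding transcripts was 28.7%, 32.9% and 34.6% in DMSO and 33.1%, 28.8% and 32.3% in Chelator (difference -0.636 points, exact p = 0.8). In counts it differed by 4.65 points (exact p = 0.2) and among transcripts of at least 1000 bases by 7.04 points (exact p = 0.2). Leaving out single libraries also turned the sign of the difference in TPM, so it has no settled direction. None of the 13 SLC11A2 transcripts tested was called.

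**Figure D4:**
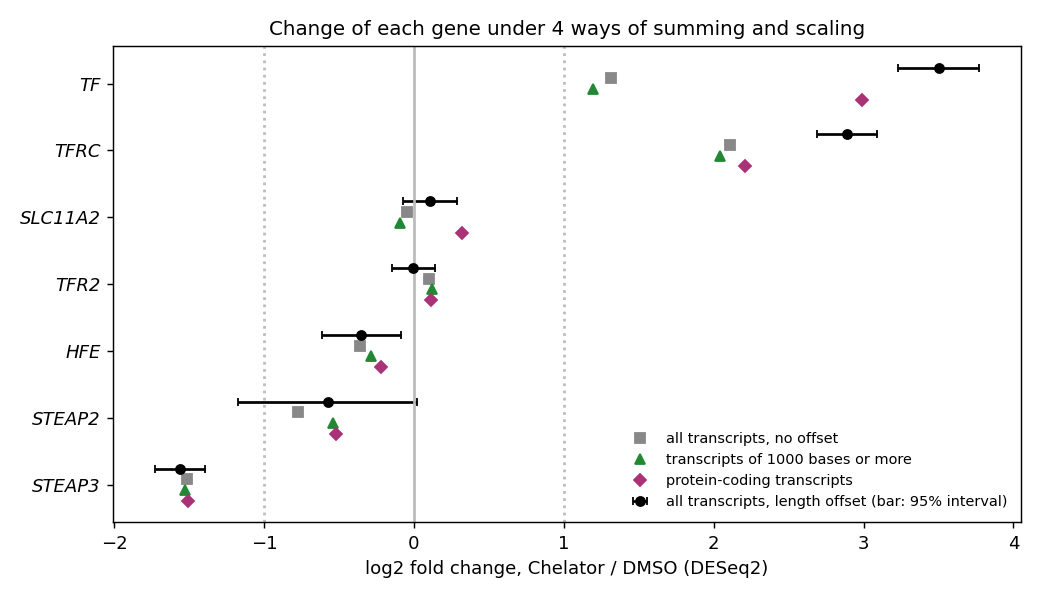
Log2 fold change of each gene in DESeq2 when counts were summed over all transcripts with the length offset (black, with the 95% interval), over all transcripts without it, over transcripts of at least 1000 bases, and over protein-coding transcripts. TF moved from 3.50 to 1.32 and TFRC from 2.89 to 2.11 without the offset, and STEAP3 lay between -1.56 and -1.51 in these fits.

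Other genes of the route were taken from 5 lists with 59 genes, of which 57 had an adjusted p. SLC25A37 and ACVR1 were called higher and STEAP1 was called lower, 3 of 57 against 10.8% of all genes. Past an adjusted p of 0.05 with any fold change were 13 higher and 19 lower, 32 of 57 against 37.7% of all genes, and the median log2 fold change was -0.11 against 0.0158 over all genes. SLC22A17, HAMP and LTF, at 1 to 38 counts per library, were also beyond the size for a call but did not pass the adjusted p.

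Among 11 other reductases, importers and carriers 1 was called, and 4 passed the adjusted p. STEAP1, a family member of STEAP3, went from 1.77, 2.52 and 1.76 TPM to 0.699, 0.845 and 0.881 TPM (log2 fold change -1.34, adjusted p = 2.98e-05). SLC39A8 and SLC39A14, zinc transporters that also carry iron, were the most abundant, at log2 fold changes of -0.30 and -0.33. MELTF, or melanotransferrin, was at 0.66. Of 23 genes of the clathrin coat, endocytosis and receptor recycling none was called, 7 were higher and 9 lower past the adjusted p. PICALM and AP2M1, the most abundant, were at log2 fold changes of 0.03 and 0.11 and did not pass. CLTC, the clathrin heavy chain, was at -0.55 and AP2S1, the small subunit of the AP2 adaptor, at 0.63, both past the adjusted p.

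Of 12 genes that act on the members' mRNAs or proteins none was called, with 2 higher and 5 lower past the adjusted p. NDFIP1, an adaptor that targets DMT1 for degradation, was at a log2 fold change of -0.39 and NEDD4, a ubiquitin ligase, at 0.29 (adjusted p = 0.057). IREB2, which encodes iron regulatory protein 2, was at -0.41, while ZC3H12A, the regnase that cleaves TFRC mRNA, was at 3.51, 5.50 and 3.05 TPM in DMSO and 5.97, 6.84 and 6.95 TPM in Chelator, a log2 fold change of 0.71. The others of this list past the adjusted p were MARCHF8 at -0.66, RC3H1 at -0.53, RC3H2 at -0.36 and NDFIP2 at 0.33. Of 3 genes for the passage into mitochondria SLC25A37, or mitoferrin 1, went from 64.6, 73.6 and 72.1 TPM to 138, 153 and 157 TPM. Its log2 fold change of 1.06 (adjusted p = 6.4e-42) was 0.95 without the length offset and 0.99 when centred on the mean log2 change, and each ends the call. ABCB10, which binds mitoferrin 1, was at -0.32.

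Of 10 partners of TFR2 and HFE in iron sensing 9 had an adjusted p. ACVR1, a type I receptor for bone morphogenetic proteins, went from 4.21, 3.93 and 3.98 TPM to 11.97, 11.4 and 10.9 TPM (log2 fold change 1.47, adjusted p = 6.19e-36). B2M, the light chain of HFE and of MHC class I, was at a log2 fold change of 0.31, and EPOR, the erythropoietin receptor that associates with TFR2, at -0.44. Both were past the adjusted p and below the size for a call.

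**Figure D5:**
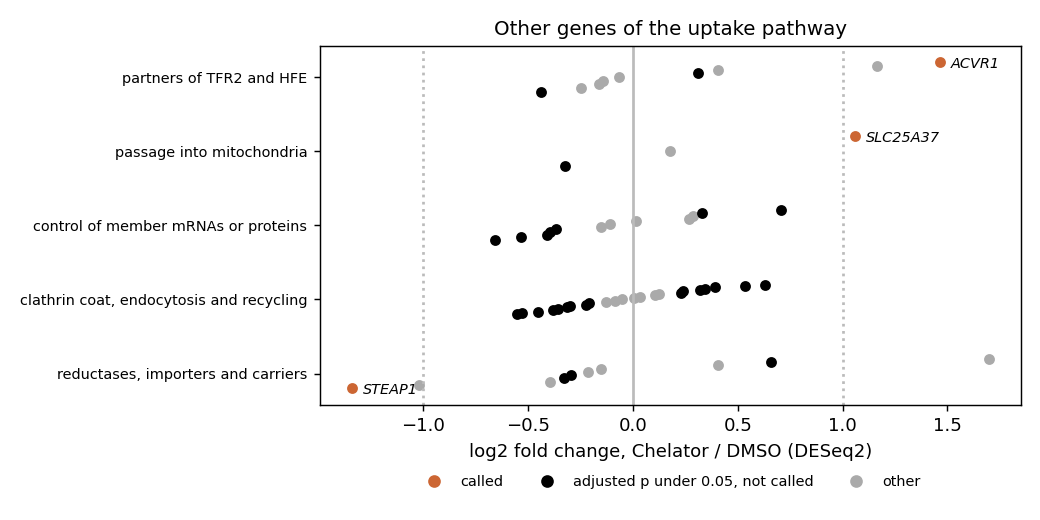
DESeq2 log2 fold change of each gene of the 5 lists that had an adjusted p, 57 in all, with dotted lines at the size required for a call. SLC25A37 and ACVR1 lay above it and STEAP1 below it among those past the adjusted p, and the grey points beyond the lines did not pass.

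The genes nearest to TFRC and TF in profile were taken from 10337 genes whose normalized counts averaged 500 or more, by the root mean square distance of centred log2 normalized counts over the 6 libraries. For TFRC they were LRRC4B, BTG2, TMEM158, EPHB6 and VGF, at distances of 0.125 to 0.171. For TF they were UNC5B, SP6, GDF15, CDKN1A and EPAS1, at 0.172 to 0.259. The log2 fold changes of the TFRC neighbours lay between 2.87 and 3.07 and those of the TF neighbours between 3.08 and 3.63. Without the length offset EPAS1 went from 3.08 to 3.41 and GDF15 from 3.58 to 3.63 while TF went to 1.32, so the nearness of TF to them holds on the offset scale. The same was true of TFRC, which went to 2.11 while its neighbours were at 2.89 to 3.20.

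The start sites of the members were searched for ACGTG, a form of the core of the hypoxia response element, on either strand. RefSeq promoter windows of 300 bases on GRCh38.p14 were used, and other forms of the core were not searched. TFR2 had no window. Of 11 windows of the other 6 members 3 held it, in HFE, TFRC and an upstream start of TF that lies before the GENCODE span of the gene, against 21.4% of 35116 windows. A match is a string of letters and not a site of binding. The window at the TF start nearest to TF-201, at chr3:133746143-133746442, did not hold it.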

How the data were processed

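PolyA RNA of 6 K562 libraries, 3 per group as the sample titles gave them, was analysed. The authors quantified reads with Salmon 1.10.2. The deposited files give an estimated count per transcript, which need not be whole, and TPM, the authors' counts divided by effective length and scaled to a fixed sum. Where transcripts share sequence, their separate values rest on Salmon's division of the reads. The annotation and bias options were not given in the sources used here. Transcripts were matched to GENCODE release 44: 251142 of 252045 by identifier and length, 470 by another version, and 433 not at all (0.139% to 0.150% of counts).

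Counts were summed per gene, rounded and fitted with DESeq2 1.42.0 (26074 genes with a total above 10). Transcripts that reached 10 counts in 3 or more libraries were fitted with edgeR 4.0.16, the length offset applying to genes only. Intervals are normal intervals from the standard error. A floor of 3 counts per library, scaled to depth, stood for 0 and covers counting error only. RNAfold 2.7.2, limma 3.58.1 and R 4.3.3 were also used. The fits were tested on simulated data. There the usage test made more false than true calls when the transcripts of a gene varied unequally.

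The members and lists were chosen with earlier results of these data known. Named were the 7 members, their transcripts with at least 5% of the gene's TPM in a group or called, genes overlapping them, called list genes with the 2 most abundant of each list, and the 5 nearest profiles of TFRC and TF. CLTC, AP2S1, MELTF, IREB2, ZC3H12A, MARCHF8, RC3H1, RC3H2 and NDFIP2 were added after their values were seen. Alternatives were other size factors, centring, filters, DESeq2, edgeR or limma in turn, log2(TPM + 1) and log2(TPM + 0.1), no length offset, subsets of transcripts, a replicate block and each library left out.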

Additional observations from a re-analysis of the deposited data

How the results depend on the processing

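The 3 gene calls of TF, TFRC and STEAP3 held in every alternative that gave a value, and leaving out transcripts that share annotated exon bases with another gene gave none for STEAP3 and HFE, whose transcripts all share some. All genes called numbered 797 with limma on log2(TPM + 1), against 2646. The log2 fold change of TFR2 changed sign, to 0.0406 with TMM size factors and with edgeR, 0.0982 without the offset, 0.0270 and 0.0273 with limma on log2(TPM + 1) and log2(TPM + 0.1), 0.1123 over coding transcripts, and 0.1199 and 0.1549 over transcripts of at least 1000 bases with and without the offset. It ran from -0.0578 to 0.0274 with a library left out. The adjusted p of TFR2 ran from 0.0396 to 0.985 over the alternatives, and its log2 fold change never reached the size for a call. SLC11A2 went to -0.0466 without the offset and to -0.0949 and -0.0510 over transcripts of at least 1000 bases with and without it. With a library left out STEAP2-203 ran from -1.259 to 0.0307 and TFR2-211 from -0.1817 to 0.0332. The adjusted p of HFE ran from 0.00203 to 0.265.

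The share of TFRC in element-holding transcripts changed sign to 1.818 points in counts, 0.9117 over coding transcripts and 9.501 over transcripts of at least 1000 bases. That of SLC11A2 changed to 4.653, 1.935 and 7.04 points in the same order, to 0.4637 with the pattern anywhere in the transcript, and with a library left out it ran from -2.318 to 0.6734.

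Transcript calls numbered 3082 to 5259 with a library left out, against 6158, and calls among the members 9 to 15, against 15. The low values came without Chelator replicate 2 or 3, which gave 3082 and 3199 transcripts and 9 calls among the members each. TF-204, TF-210, TF-202 and TFRC-225 fall below the count filter without any Chelator library, by its construction. TFRC-225 lost its call without any DMSO library (adjusted p 0.051 to 0.0523), and TFRC-232, TFRC-233 and STEAP3-203 lost theirs without some libraries. TF-201 was called at 1.034, 1.007 and 1.0052 without DMSO replicate 3, Chelator replicate 1 and Chelator replicate 2. Genes called for usage numbered 3192 with limma's diffSplice and 542 to 1066 with a library left out, against 1105, with 598 and 542 without Chelator replicate 2 and 3. Members called for usage numbered 1 to 2. TF was not called without any Chelator library, and SLC11A2 was called without Chelator replicate 3 (adjusted p 0.00319).

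The deviations of same-numbered libraries correlated at -0.075, 0.13 and 0.101, so the numbers do not pair the samples. With a replicate block 2345 genes, TF, TFRC and STEAP3 among them, 1959 transcripts, 7 member transcripts and 926 genes for usage were called, and not every library correlated best with its own number. Under it TF-202, TF-204, TF-210, TFRC-211, TFRC-225, TFRC-232, TFRC-233 and STEAP3-203 were not called, at adjusted p-values of 0.0609 to 0.116.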
